A study of Mus musculus with 5 samples.

Results

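A set of 10 genes that mark stromal and contractile mesenchyme was followed across all 5 one-colour arrays of a mouse embryonic stem (ES) cell series: Acta2, Tagln, Thy1, Mgp, Bgn, Fn1, S100a4, Efemp1, Tm4sf1 and Vim. They were found as the probes that the platform annotation names with these symbols, 10 of 16032 named genes, each with 1 probe that had a value on every array. The genes were chosen from these same intensities, already known when the list was drawn up, so the values below describe them and are not tested. All cells were male, of strain 129, and carried the transgene myr-Akt-Mer, an Akt kinase with a membrane anchor joined to an altered hormone receptor domain, so that 4-hydroxytamoxifen (4OHT) switches the kinase on. The labels do not name the promoter that drives the transgene or say whether a line is 1 clone.

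The 5 cultures were ES cells of line 21 kept without 4OHT, the same line in 1 µM 4OHT, Akt-spheres of line 21, Akt-spheres of line 42, and ES-like cells derived from line 21 spheres after transient 4OHT on mitotically inactivated embryonic fibroblasts (reverted cells). The ES cells were feeder-free. Spheres were induced and passed every 4 days on OP9 cells, a bone marrow stromal line, in 1 µM 4OHT that began 3 days before induction, and OP9 cells were removed by 30 minutes of culture on a dish before analysis. By its title, the series concerns cells that active Akt brings close to primordial germ cells. Each condition had 1 array, apart from the spheres with 1 array per line, and no ES cells of line 42 were analysed here. Nothing says whether the arrays came from repeated cultures, so any p-value reflects no more than the variation among these 5, which may be technical.

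Stromal fibroblasts and smooth muscle cells of connective tissue share a contractile apparatus of actin filaments and secrete a matrix of fibronectin, proteoglycans and elastic fibre proteins. Contractile genes such as Acta2 and Tagln are classical targets of serum response factor (SRF) and its actin-sensing cofactors, and transforming growth factor beta (TGF-beta) raises both contractile and matrix genes. OP9 cells and embryonic fibroblasts are mesenchymal, so in bulk RNA of cells grown on such layers a mesenchymal transcript can come from the cells or from the layer, and fewer cells of a type cannot be told apart from less RNA per cell.

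Acta2, Tagln and Thy1 were lower on both sphere arrays than on each of the other 3. Acta2 encodes smooth muscle actin of contractile filaments. Its deposited intensity was 476 in ES cells without 4OHT, 415 with 4OHT, 80.7 in line 21 spheres, 62.4 in line 42 spheres and 606 in reverted cells. The 2 sphere arrays did not overlap the other 3, and Acta2 was 6.84-fold lower in spheres (log2 difference -2.77, with an SD of 0.30 over the 2 sphere arrays and 0.29 over the 3 others).

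Tagln encodes transgelin, an actin-bundling protein that accompanies smooth muscle actin. Its intensity was 148 in ES cells without 4OHT, 82.7 with 4OHT, 16 in line 21 spheres, 36.0 in line 42 spheres and 665 in reverted cells. Both sphere values lay below the other 3, but the reverted cells stood well above the ES cells. The difference between spheres and the 3 ES-type arrays was -3.01 on the log2 scale (SD 0.76 and 1.55), and -2.16 without the reverted cells. Against the spheres of its own line the reverted array was 37.8-fold higher, and against ES cells without 4OHT it was 4.16-fold higher.

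Thy1 encodes the surface glycoprotein CD90, by which fibroblasts and other stromal cells are often sorted. Its intensity was 464 in ES cells without 4OHT, 331 with 4OHT, 24.8 in line 21 spheres, 16.1 in line 42 spheres and 230.1 in reverted cells. This was the widest gap between spheres and the ES-type arrays among the lower members, 15.6-fold (log2 -3.97, SD 0.45 and 0.56). On both sphere arrays Thy1 lay under the 40th percentile of listed probes (28.6 to 29.3), the level below which a probe is here called dim. The reverted value was 8.65-fold above line 21 spheres and 2.16-fold below ES cells without 4OHT.

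**Figure D1:**
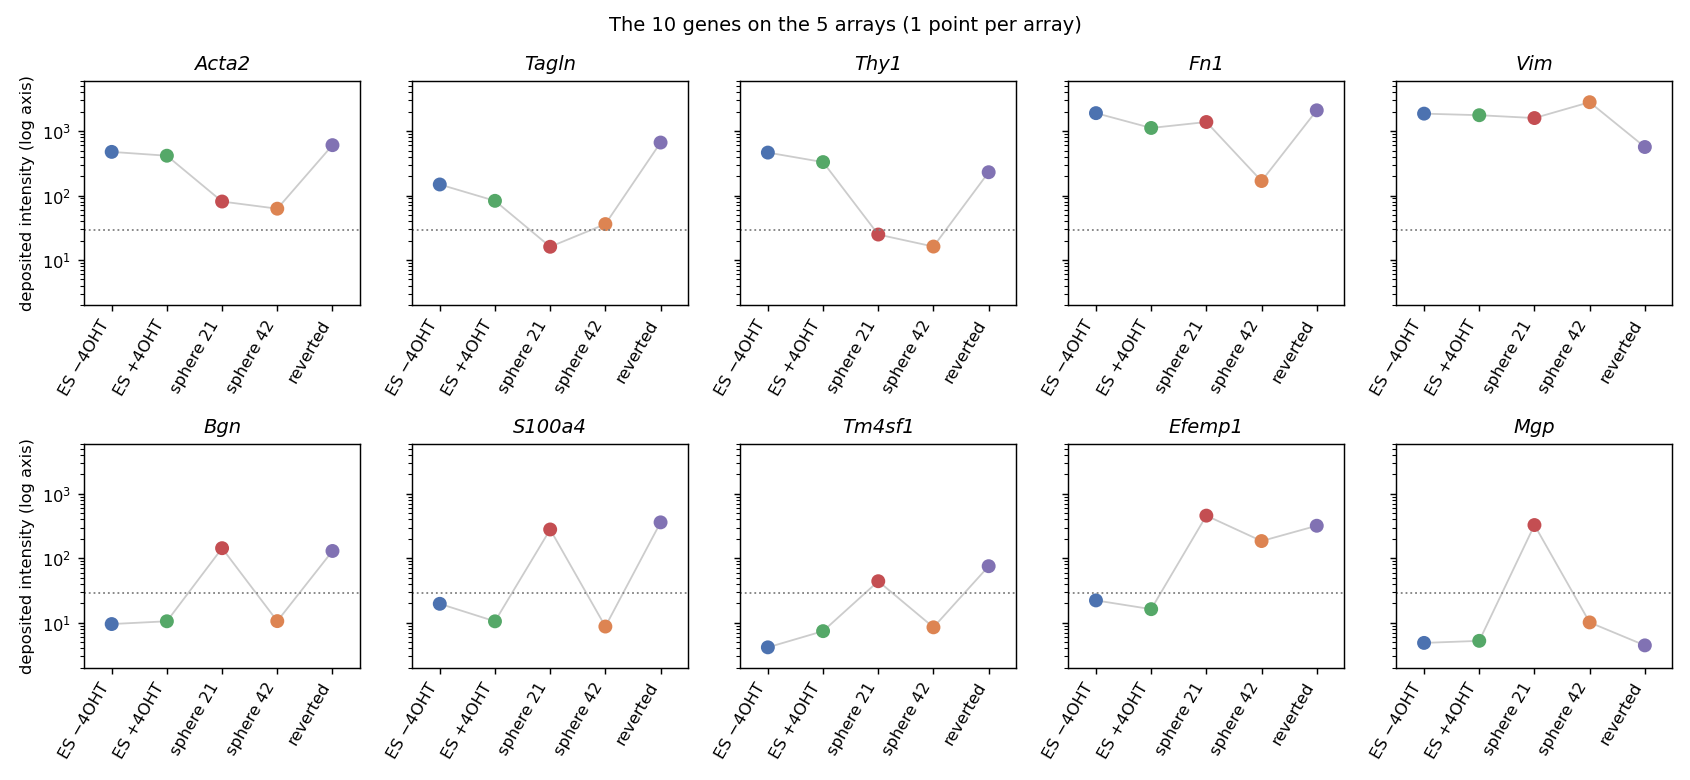
Deposited intensity (log axis) of the 10 genes on each of the 5 arrays, 1 point per array, with the dotted line at the mean 40th percentile of listed probes. Acta2, Tagln and Thy1 dip on both sphere arrays, while Bgn, S100a4 and Tm4sf1 are high in line 21 spheres and reverted cells and dim on the other 3 arrays.

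Bgn, S100a4 and Tm4sf1 were high on 2 arrays of line 21, the spheres and the reverted cells, and dim on the other 3. Bgn encodes biglycan, a small leucine-rich proteoglycan that binds collagen. It read 9.50 in ES cells without 4OHT, 10.5 with 4OHT, 143 in line 21 spheres, 10.6 in line 42 spheres and 129.6 in reverted cells. Line 21 spheres were thus 13.3-fold above ES cells without 4OHT and the reverted cells 11.6-fold (7.63-fold and 6.74-fold with a pseudocount of 10, since the ES value is dim), whereas line 42 spheres differed from these ES cells by a log2 of 0.04, whose sign turned to -0.01 with a pseudocount of 10.

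S100a4 encodes a calcium-binding protein also known as fibroblast-specific protein. Its intensity was 19.6 in ES cells without 4OHT, 10.5 with 4OHT, 279.57 in line 21 spheres, 8.69 in line 42 spheres and 360.5 in reverted cells. Line 42 spheres and both ES arrays were dim, so no order is read among them. Line 42 spheres were 30.0-fold below those of line 21, or 16-fold with a pseudocount of 10. Tm4sf1, a tetraspan surface protein of endothelial and mesenchymal cells, read 4.13, 7.37, 44.0, 8.45 and 75.2 in the same order of arrays. All of its values were low, and only those of line 21 spheres and reverted cells passed the 40th percentile.

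Efemp1 encodes fibulin-3, a protein of elastic fibres and basement membranes. Its intensity was 22.1 in ES cells without 4OHT, 16.2 with 4OHT, 459 in line 21 spheres, 185 in line 42 spheres and 319 in reverted cells. Unlike the 3 genes above it was at least 2-fold higher than in ES cells in both sphere lines, 19.2-fold in line 21 and 7.49-fold in line 42. The reverted value lay between those of the sphere lines, 12.9-fold above ES cells without 4OHT. Against the 3 ES-type arrays together the log2 difference of spheres was 2.54 (SD 0.96 and 2.31), and 3.87 without the reverted cells.

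The promoters of these 4 genes, whose values were high together in line 21 spheres and reverted cells, are shown as the 250 bases before the annotated start (RefSeq, GRCm38.p6), 5′ to 3′ on the strand of the gene. They are S100a4 at chr3:90603520-90603769 (plus strand), Bgn at chrX:73483351-73483600 (plus), Tm4sf1 at chr3:57301989-57302238 (minus) and Efemp1 at chr11:28852955-28853204 (plus). Capitals mark matches on either strand to 6 motifs. These were TATAAA of core promoters, GGGCGG bound by Sp1, CATTCC bound by TEAD factors and GTAAACA bound by the FoxO factors that Akt inhibits. They also included TGANTCA, a loose form of the AP-1 motif in which N is any base. The last was a strict CArG box, the motif bound by SRF, with CC and GG around 6 letters that are each A or T.
S100a4: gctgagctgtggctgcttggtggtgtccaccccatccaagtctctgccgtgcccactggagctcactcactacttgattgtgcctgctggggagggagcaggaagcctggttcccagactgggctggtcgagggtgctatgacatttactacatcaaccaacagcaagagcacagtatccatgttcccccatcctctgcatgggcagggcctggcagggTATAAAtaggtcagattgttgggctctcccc
Bgn: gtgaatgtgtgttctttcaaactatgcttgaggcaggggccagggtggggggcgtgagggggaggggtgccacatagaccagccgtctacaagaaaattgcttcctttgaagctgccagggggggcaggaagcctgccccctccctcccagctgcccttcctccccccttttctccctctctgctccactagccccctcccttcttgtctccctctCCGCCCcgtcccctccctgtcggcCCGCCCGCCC
Tm4sf1: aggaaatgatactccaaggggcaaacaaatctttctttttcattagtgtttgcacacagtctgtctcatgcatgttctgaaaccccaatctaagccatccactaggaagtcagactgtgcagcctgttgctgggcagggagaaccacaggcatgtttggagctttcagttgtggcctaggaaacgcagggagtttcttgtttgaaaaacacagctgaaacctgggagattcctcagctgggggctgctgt
Efemp1: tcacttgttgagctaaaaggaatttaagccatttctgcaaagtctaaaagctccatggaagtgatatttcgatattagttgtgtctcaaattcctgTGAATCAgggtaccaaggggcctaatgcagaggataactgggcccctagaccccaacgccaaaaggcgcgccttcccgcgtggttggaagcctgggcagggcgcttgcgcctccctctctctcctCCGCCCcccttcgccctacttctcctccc

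The 4 windows had little in common. S100a4 had a TATAAA match 31 to 26 bases before its start, a motif found in 12.4% of 32851 promoters of the same length. Bgn held 3 matches to GGGCGG, of which 2 overlap, and Efemp1 held 1, where 32.7% of promoters had any. Efemp1 also matched the loose AP-1 motif TGANTCA, present in 6.75%, with the letter A in the middle. The pattern reads the same on both strands. Tm4sf1 had no match to any of the 6 motifs. None of the 6 members in the promoter table (these 4, Acta2 and Vim) had GTAAACA, found in 3.17% of promoters, or the strict CArG box, found in 1.47%. CArG boxes with another letter in the core were not searched for, so their absence is not shown. Acta2 had 1 CATTCC match (12.6% of promoters) and Vim 1 TATAAA match. The motifs overlap one another nowhere in these windows except for the 2 matches in Bgn, and a match describes the letters only.

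Mgp, which encodes matrix Gla protein, an inhibitor of calcification made by smooth muscle and cartilage, was high on 1 array alone. Its intensity was 4.84 in ES cells without 4OHT, 5.21 with 4OHT, 328 in line 21 spheres, 10.1 in line 42 spheres and 4.43 in reverted cells. Line 21 spheres were 54.4-fold above ES cells without 4OHT and 30.8-fold above line 42 spheres, but these folds over dim values were 22.1 and 17.4 with a pseudocount of 10. In contrast to Bgn and S100a4, Mgp was not high in the reverted cells, which were 62.7-fold below the line 21 spheres from which they were derived (24.1-fold with a pseudocount of 10). Both sphere values exceeded the 3 others, but that of line 42 was dim.

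Fn1 and Vim passed the 40th percentile on all 5 arrays. Fn1 encodes fibronectin, the matrix protein that integrins bind. It read 1904 in ES cells without 4OHT, 1120.25 with 4OHT, 1386 in line 21 spheres, 168 in line 42 spheres and 2106 in reverted cells. Line 42 spheres stood apart from the other 4 arrays, at 8.52-fold below line 21 spheres and 12.1-fold below ES cells without 4OHT.

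Vim encodes vimentin, the intermediate filament of mesenchymal cells. Its intensity was 1869.77 in ES cells without 4OHT, 1768 with 4OHT, 1597 in line 21 spheres, 2815 in line 42 spheres and 567 in reverted cells. The reverted cells were lowest, 3.53-fold below ES cells without 4OHT and 2.91-fold below line 21 spheres, while the sphere lines differed by 1.70-fold. Vim had the narrowest range of the 10 genes, 2.31 log2 units from lowest to highest array. The other 9 spanned 3.26 (Acta2) to 5.97 (Mgp), above the 95th percentile of 3.05 over 10589 genes, and since the genes were chosen for their values this is a description only.

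**Figure D2:**
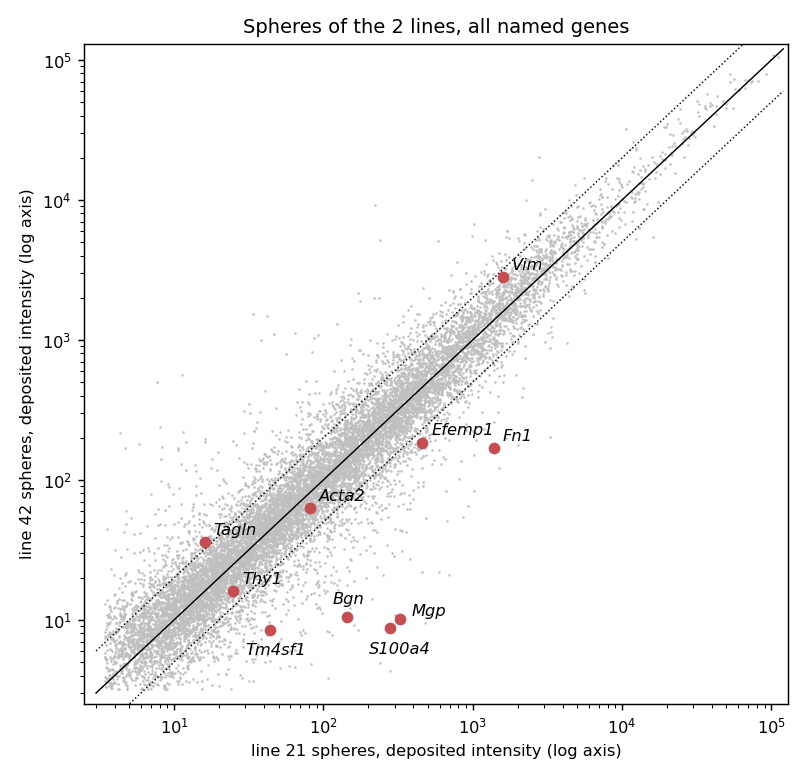
Deposited intensity of 13574 genes in line 21 spheres (x) and line 42 spheres (y), both on log axes, with the line of equality, dotted lines at 2-fold and the 10 genes in red. Mgp, S100a4, Bgn, Fn1, Tm4sf1 and Efemp1 lie below the lower dotted line, and Tagln lies above the upper one.

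Between the sphere lines, 6 members were at least 2-fold lower in line 42 (Mgp, Bgn, Fn1, S100a4, Efemp1 and Tm4sf1), against a background of 7.81% of 9954 genes, and 1 was higher (Tagln, 2.10-fold), against 7.87%. Tagln was dim in line 21 spheres, and with a pseudocount of 10 it did not reach 2-fold (log2 0.78). Mgp, Bgn, S100a4 and Tm4sf1 were dim in line 42 spheres, so they entered this count only through line 21 spheres, where they were high. Thy1 was too dim on both arrays to enter it. Acta2, at 1.34-fold lower, and Vim did not reach 2-fold. A difference between the lines cannot be told apart from one between cultures, since each line had 1 array. The members were chosen with these values in view, so nothing is read from how their count compares with all genes.

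Within line 21, spheres against ES cells without 4OHT had 5 members at least 2-fold higher (Mgp, Bgn, S100a4, Efemp1 and Tm4sf1; 10.1% of 10021 genes) and 3 lower (Acta2, Tagln and Thy1; 12.5%). In line 42 spheres against the same array, 1 member was higher (Efemp1; 8.37% of 10032 genes) and 4 were lower (Acta2, Tagln, Thy1 and Fn1; 10.5%), with the other dim members outside the count. Both lines together had Efemp1 higher and Acta2, Tagln and Thy1 lower against ES cells without 4OHT, where 4.51% of 10283 genes were higher and 6.01% lower in both. Against ES cells with 4OHT the same 4 members were counted, where the shares were 5.98% and 6.86% of 10407 genes, but Tagln left the count with a pseudocount of 10 and with a filter at the 60th percentile. Both sphere arrays lay below all 3 ES-type arrays for Acta2, Tagln and Thy1 (18.5% of 10589 genes) and above them for Mgp (19.1%). The members higher in spheres were dim in both ES cultures and entered these counts only through the spheres. Thy1 was dim in both sphere lines and entered through the other arrays. These comparisons share the sphere arrays, and the members were chosen with the values in view, so nothing is read from the counts.

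4OHT itself moved no member by 2-fold in ES cells, where 2.56% of 9852 genes were at least 2-fold higher and 2.40% lower. Of the 5 members bright enough to be counted, Tagln came nearest, at 1.96-fold lower with 4OHT, followed by Fn1 at 1.87-fold lower. Thy1 was 1.54-fold, Acta2 1.26-fold and Vim 1.16-fold lower with 4OHT. The other 5 members were dim on both arrays, and the signs for Mgp (-0.05) and Bgn (-0.01) turned without centring, and that for Mgp also with quantile normalization.

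Reverted cells were set against ES cells without 4OHT to ask which values lay near those of the ES cells. Bgn, S100a4, Efemp1, Tm4sf1 and Tagln were at least 2-fold higher (5.18% of 9939 genes), and Thy1 and Vim were lower (6.34%). Of these, Bgn, S100a4, Efemp1 and Tm4sf1 were dim in the ES cells and entered the count only through the reverted cells. Acta2 (1.19-fold higher) and Fn1 (1.03-fold higher) lay near the ES value. Mgp was dim on both arrays (4.43 in reverted cells and 4.84 in ES cells) and stayed outside the count. Fn1 and Vim had not differed by 2-fold between line 21 spheres and these ES cells either. Against the line 21 spheres they came from, reverted cells had Acta2, Tagln and Thy1 at least 2-fold higher (9.41% of 10034 genes) and Mgp and Vim lower (7.58%). Tagln and Thy1 were dim in these spheres and Mgp in the reverted cells, so each entered through the other array. Bgn, S100a4, Efemp1 and Tm4sf1 stayed within 2-fold of the sphere value, at log2 differences of -0.19, 0.31, -0.57 and 0.71. Against the reverted cells, both sphere lines had Acta2, Tagln and Thy1 lower (5.81% of 10328 genes) and Mgp and Vim higher (4.21%). Mgp entered this count through line 21, since it was dim in line 42 spheres and reverted cells, and it left the count with a pseudocount of 10 and with quantile normalization. Since the members were chosen for their values, nothing is read from these counts.

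**Figure D3:**
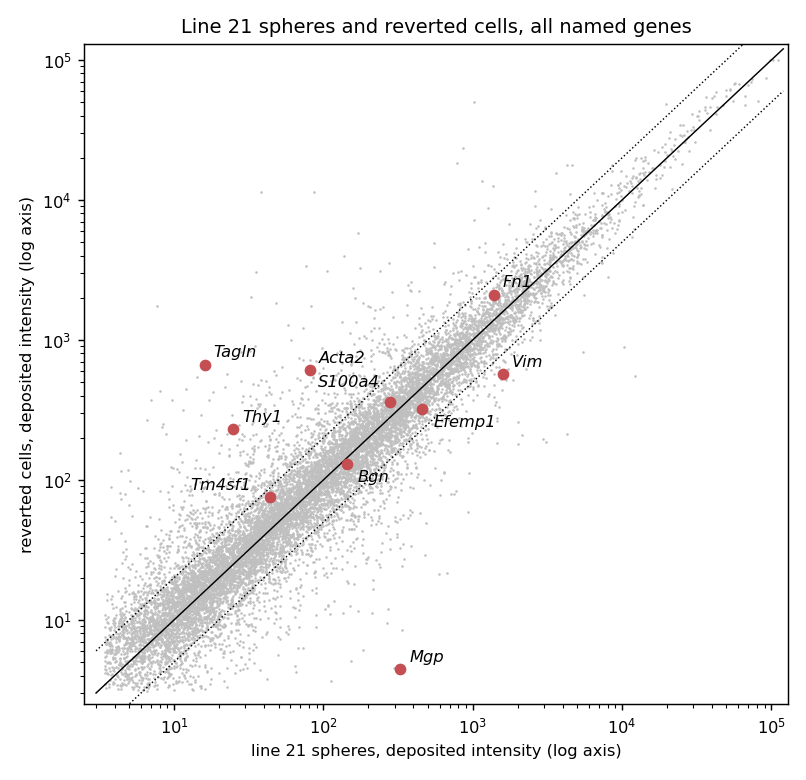
Deposited intensity of 13574 genes in line 21 spheres (x) and in the reverted cells derived from them (y), both on log axes, with equality and 2-fold lines and the 10 genes in red. Tagln, Acta2 and Thy1 lie above the upper dotted line, Mgp and Vim below the lower one, and Bgn, S100a4, Efemp1, Tm4sf1 and Fn1 between them.

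For each member, the genes with the most similar profile over the 5 arrays were found by the root mean square difference of gene-centred log2 values. Nearest to Acta2 were Pcolce2 (0.19), Rnase4 (0.21) and Ltbp4 (0.21), and nearest to Thy1 were Lrrc2 (0.16), Cbr3 (0.35) and Mras (0.36). Nearest to Bgn were Chd3 (0.27), Nefm (0.32) and T (0.33), to S100a4 T (0.58), Pla2g7 (0.69) and Nefm (0.72), and to Tm4sf1 Nefm (0.42), Flt1 (0.49) and Dsp (0.51). T, the mesoderm factor brachyury, read 22.6 in ES cells without 4OHT, 15.4 with 4OHT, 193 in line 21 spheres, 19.9 in line 42 spheres and 305 in reverted cells. It thus had the same high and low arrays as Bgn and S100a4. Nearest to Mgp were Olig3 (0.43), Igfbpl1 (0.48) and Fabp7 (0.72), of which Olig3, a neural transcription factor, read 594 in line 21 spheres and 16.4 to 22.1 on the other arrays. For Tagln they were Sfn (0.34), Mobp (0.39) and Ap1m2 (0.44), for Fn1 Gpbp1 (0.28), Efl1 (0.30) and Nme4 (0.31), for Efemp1 Tnfsf4 (0.51), Chst15 (0.54) and Peg3 (0.55), and for Vim Cdkn3, Supt3 and Gsc2 (0.13 to 0.14).

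Lists of related genes, none of which held these 10, were compared with limma for spheres against the 3 ES-type arrays, where 0.963% of 10589 genes rose and 1.47% fell. The limits of this fit come first: leaving out the untreated ES culture gave 0 calls (1316 genes at an unadjusted p under 0.05), and leaving out the 4OHT-treated one gave 32 in place of 258. There were 148 calls without line 21 spheres and 98 without line 42 spheres.

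Of the contractile cytoskeleton genes, 0 of 27 measured passed limma's threshold in either direction, and their median log2 difference was -0.45 against 0.00 over all genes. Both sphere arrays lay below the 3 others for 12 of the 27 and above them for 1 (18.5% and 19.1% of all genes), so the order of arrays seen for Acta2 recurred in part of the list. Actg2, the other smooth muscle actin, read 115 in untreated and 162 in treated ES cells, 81.3 and 56.0 in spheres of lines 21 and 42 and 181 in reverted cells (limma adjusted p = 0.121). Cnn1, which encodes calponin, read 35.5 in untreated and 24.9 in treated ES cells, 36.6 and 22.4 in spheres of lines 21 and 42 and 67.5 in reverted cells, so that its sphere values overlapped those of the ES cells. Tagln2, a paralog of Tagln, read 1466, 2203, 289.69, 29.8 and 2207 (log2 -4.34, SE 0.91, limma adjusted p = 0.0716), and Csrp2, a LIM protein of smooth muscle, was lower in both sphere lines too (limma adjusted p = 0.119). In reverted cells Tpm1, a tropomyosin, read 8732 against 1269 and 2961 in spheres and 2453 and 1819.94 in ES cells. Cnn1, Actg2 and the reverted value of Tpm1 were singled out after their values were seen. Against line 21 spheres, reverted cells had 11 of 27 measured contractile genes at least 2-fold higher and 1 lower (9.41% and 7.58% of all genes).

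Among SRF and YAP regulators and their targets, 0 of 17 passed limma (median log2 -0.12). Srf itself read 126 and 121 in ES cells, 277 and 234 in spheres and 216 in reverted cells, so it was not lower where Acta2 and Tagln were. Egr1, an immediate early gene controlled by SRF, was lower in both sphere lines, at 85.2 and 73.8 against 294, 225 and 542 (log2 -2.04, SE 0.41, limma adjusted p = 0.0677). In reverted cells against line 21 spheres, 8 of 17 had a value at least 2-fold higher and 0 a lower one (9.41% and 7.58% of all genes), among them the YAP targets Ccn1 (320.43 against 40.3) and Ccn2 (576 against 157). Srf, Ccn2 and the reverted value of Ccn1 were singled out after their values were seen.

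Of TGF-beta ligands, receptors and targets, limma called 1 of 14 lower and 0 higher. Ltbp4, which tethers latent TGF-beta to the matrix, fell in spheres (log2 -2.89, SE 0.24, limma adjusted p = 0.00944). It read 46.8 and 37.6 in spheres and 271 to 348 on the other 3 arrays. Its neighbour in the list Skil, a repressor of the pathway, was lower in both sphere lines only against ES cells without 4OHT (129 against 44.0 and 60.3, with 46.9 in ES cells with 4OHT and 44.0 in reverted cells). The receptors Tgfbr1 and Tgfbr2 had values of at most 10.7 or none on every array.

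Of 23 measured stromal matrix genes limma called 1 higher and 1 lower, with a median log2 difference of 0.01. Mfap2, a microfibril protein, rose (log2 2.65, SE 0.28, limma adjusted p = 0.0155), reading 83.7 and 113 in spheres and 12.0 to 16.3 elsewhere. Mfap5, a relative of Mfap2, fell (log2 -1.76, SE 0.24, limma adjusted p = 0.0298), reading 18.6 and 26.2 in spheres and 73.0 to 80.4 elsewhere. Spp1, which encodes osteopontin, read 6454 and 9078 in ES cells, 1471 and 305 in spheres and 4213 in reverted cells. Between the sphere lines, 9 of 16 measured matrix genes were at least 2-fold lower in line 42 and 1 was higher (7.81% and 7.87% of all genes). Loxl2, a collagen cross-linking oxidase, read 90.0 in line 21 spheres and 18.2 in those of line 42, and the collagen gene Col6a1 31.5 and 9.96. The matrix list and the members Bgn, Efemp1, Mgp and Fn1 thus had the same side low in this comparison.

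Proteins that act with the members gave few calls. Of 8 fibronectin receptors limma called 0, and Sdc1, a syndecan, was at least 2-fold higher in both sphere lines than in ES cells without 4OHT (107 and 73.1 against 29.4). Between the sphere lines, 2 integrin genes differed by at least 2-fold. Itgb1 was lower in line 42 spheres (132 against 324) and Itgb5 higher (357 against 79.2). That is 1 of 8 receptor genes each way (7.81% and 7.87% of all genes). Of 5 genes for vitamin K-dependent carboxylation, which matures Mgp, or for other Gla proteins, 0 passed, and Vkorc1, which recycles vitamin K, read 220.04 in line 21 and 44.1 in line 42 spheres. Pros1, the Gla protein S, was lower in both lines (35.4 and 119 against 389 in ES cells without 4OHT). Of 10 other S100 genes 0 passed. S100a11 was lower in both lines (219 and 551 against 1160.16). No other S100 gene measured was at least 2-fold higher in line 21 spheres than in ES cells without 4OHT, where S100a4 was. In reverted cells against the same ES array, 2 of 10 were at least 2-fold higher (S100a3 and S100a6) and 1 was lower (S100g). The shares over all genes were 5.18% and 6.34%.

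Of 10 intermediate filament genes other than Vim, limma called the neurofilament gene Nefh (log2 -2.08, SE 0.34, limma adjusted p = 0.0430) and the peripherin gene Prph (log2 -3.05, SE 0.51, limma adjusted p = 0.0455) lower and 0 higher. Nefl read 239 in line 21 spheres, 4.92 in those of line 42 and 3121 in reverted cells, and Nes, the nestin of progenitor cells, 284, 81.3 and 223. Of 11 tetraspanins and anchored surface proteins, Ly6e rose (log2 1.90, SE 0.32, limma adjusted p = 0.0454) and 0 fell, while Cd59a, a complement inhibitor, read 2813 and 3678 in spheres against 116 in ES cells without 4OHT and 1000.10 in reverted cells. The epithelial-mesenchymal transition list had 0 of 8 called. Cdh1, the epithelial cadherin, read 3354 and 2586 in ES cells, 930.47 and 1110 in spheres and 4484 in reverted cells, and the repressor Zeb1 read 68.5, 157, 184, 217 and 30.0, so Zeb1 was lowest in reverted cells.

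Markers of the layers on which the cells had grown were read on the same arrays. The 15 fibroblast defining genes gave a summed intensity of 622 and 592 in ES cells, 709.9 in line 21 spheres, 593 in line 42 spheres and 799 in reverted cells, and limma called 0 of 7 measured. Col1a1 read 18.6 and 24.4 in ES cells, 17.5 and 17.0 in spheres and 36.0 in reverted cells, and Col3a1 25.9, 24.5, 19.8, 10.0 and 29.7. Dcn was at 18.8, 18.1, 5.49, 6.53 and 20.3, and Postn at 10.3, 5.49, 5.88, 5.53 and 8.67. These are defining genes of fibroblasts, and in spheres none of these 4 passed the 40th percentile. Of all 15, however, 5 reached it in line 21 spheres and 5 in line 42 spheres. In ES cells 5 reached it without 4OHT and 4 with 4OHT, and in reverted cells 7 did. Col1a2 read 50.0 and 53.5 in ES cells, 101 in line 21 spheres, 42.0 in line 42 spheres and 102 in reverted cells, and so was higher where Bgn and S100a4 were. Mmp2 read 59.4, 24.1, 115, 104 and 101.

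The other fibroblast genes were dim or differed little, apart from Twist2. It was at least 2-fold higher in line 42 spheres than in ES cells without 4OHT. Lum read 11.9 to 26.3, Pdgfra 5.56 to 24.1, Fap 17.3 to 24.5, Ddr2 12.5 to 18.6 and Snai2 6.65 to 18.5 over the 5 arrays. Pdgfrb lay between 86.9 and 119.5, Twist1 between 166 and 256 and Twist2 between 31.6 and 83.0. Prrx1 had no value in ES cells without 4OHT or in line 42 spheres and read 3.79 to 10.0 elsewhere.

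**Figure D4:**
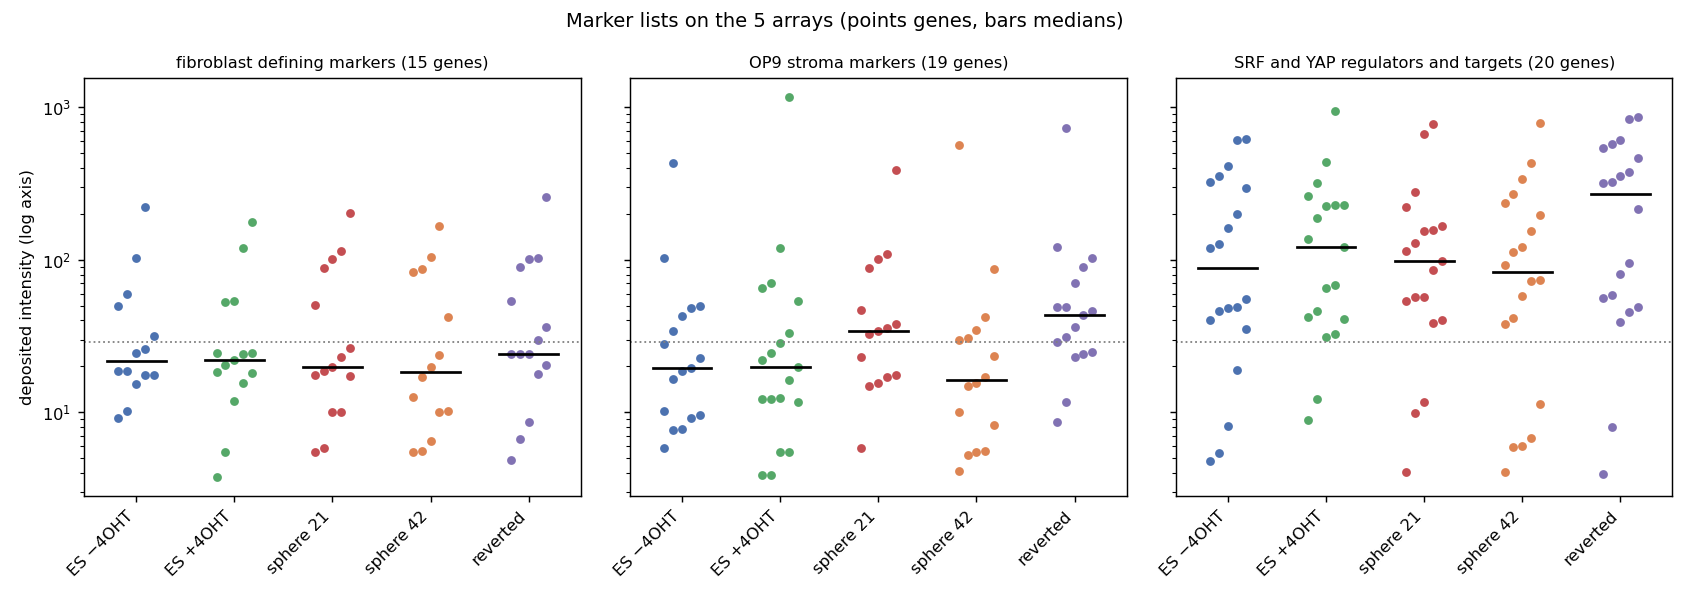
Deposited intensity (log axis) of fibroblast defining genes, OP9 stroma genes and SRF or YAP genes on the 5 arrays, with a dotted line at the mean 40th percentile of listed probes. Each array shows the genes with a value on it and a bar at their median, so the genes behind the medians differ between arrays. The fibroblast medians lie between 18.5 and 24.1 on all arrays. The OP9 median is 34.1 in line 21 spheres, 16.3 in line 42 spheres and 43.2 in reverted cells. In ES cells it is 19.4 without and 19.7 with 4OHT. The SRF and YAP median is 268 in reverted cells.

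Of the 19 OP9 stroma genes on the array, 9 passed the 40th percentile in line 21 spheres, 6 in line 42 spheres, 6 in each ES culture and 12 in reverted cells. Their summed intensity was 866 and 1676 in ES cells, 968 in line 21 spheres, 901 in line 42 spheres and 1489 in reverted cells, of which Cebpb alone made up 433, 1157, 389, 567 and 729. limma called 0 of 12 measured. Cxcl12, the chemokine of marrow stroma, read 22.7 and 12.4 in ES cells, 109 in line 21 spheres, 8.21 in line 42 spheres and 48.9 in reverted cells. Vcam1, an adhesion molecule of stroma, read 32.6 and 23.6 in spheres against 9.66 in ES cells without 4OHT. Kitl and Il6 had no value on any array but that of ES cells with 4OHT, where they read 3.89 and 3.87. The chemokine Ccl2 was at 121 in reverted cells against 14.9 and 5.29 in spheres, chosen after its value was seen. Angpt1 read 48.2 and 64.9 in ES cells, 47.1 and 30.8 in spheres and 70.1 in reverted cells, Ebf1 42.5, 70.5, 35.5, 29.8 and 49.3, and Jag1 27.8, 12.2, 15.6, 10.1 and 46.4, so line 21 spheres did not exceed both ES arrays for these. As for Bgn, S100a4 and Tm4sf1, line 21 spheres and reverted cells were the highest 2 arrays for 6 of 15 OP9 genes with a value on all arrays (Col1a2, Cxcl12, Ebf2, Fgf7, Pdgfra and Vcam1) and for 4 of 14 fibroblast genes (Col1a2, Ddr2, Lum and Pdgfra), beside 12.5% of 13574 named genes. The OP9 and fibroblast lists share genes, and Col1a2 and Pdgfra are counted in both, so these counts are not separate. Among the genes named for this pattern, Col1a2, Cxcl12 and Fgf7 were at least 2-fold lower in line 42 than in line 21 spheres. Cxcl12 and Vcam1 were at least 2-fold higher in line 21 spheres than in both ES cultures, while Ddr2, Lum and Pdgfra were dim on every array. The part of OP9 or fibroblast RNA in the values of all 10 members was not tested.

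Of the 6 adipocyte genes measured, limma called Fabp4, a fatty acid carrier, higher (log2 4.72, SE 0.25, limma adjusted p = 0.00433). Against ES cells without 4OHT, Fabp4, Lpl and Scd1 (3 of 6) were at least 2-fold higher in both sphere lines. None was lower (4.51% and 6.01% of all genes). Against ES cells with 4OHT, where Lpl and Scd1 were higher than without, Fabp4 was higher and Plin2 lower in both lines. Fabp4 and Lpl were also higher than in reverted cells. Adipoq, which defines fat cells, read 3.31 to 12.2 on all arrays. Of 6 endothelial genes 0 were called, and Cdh5 had no value apart from 5.23 in line 42 spheres. Flt1 read 112 in line 21 spheres, 20.8 in line 42 spheres and 140.2 in reverted cells, an order also seen for Tm4sf1. It was the only gene of 5 measured between the sphere lines that was at least 2-fold lower in line 42. In contrast, 3 were higher there, Cldn5, Egfl7 and Pecam1 (7.81% of all genes were lower and 7.87% higher). The labels were checked with 14 pluripotency genes, of which limma called Dppa5a, Fgf4, Klf4, Tbx3 and Tdgf1 lower in spheres and 0 higher. Nanog read 5480 and 3839 in ES cells, 5523 and 4003 in spheres and 4538 in reverted cells, so the sphere values of this pluripotency factor overlapped those of the ES-type arrays, while Zfp42 read 86.1 and 1030 in spheres against 11370 to 15996 elsewhere.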

How the data were processed

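Total RNA was amplified to amino allyl antisense RNA and labelled with Cy5 for Toray arrays, per the labels' protocols. The deposited values are probe intensity values on a linear scale, with a median of 50 per array; how the authors corrected background, normalized and left cells empty is not given in the sources used here. Of 22871 probes per array 6.09% to 9.11% had no value and were not filled in. The number of arrays limits the precision.

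Probe names came from the platform annotation (16264 probes with 1 symbol, 0 with several, 6607 with none) and were updated through the RefSeq table of GRCm38.p6 (12239 of 16087 symbols current, 3787 updated, 61 kept). For a gene with several probes the one brightest on average was used. Values were taken to log2(intensity + 1) and the median over 18884 probes was subtracted per array. Folds are on this scale, and understate the change of dim probes. A comparison took in genes listed on each of its arrays and, on 1 or more, no dimmer than the 40th percentile. limma 3.58.1 in R 4.3.3 (lmFit, eBayes, Benjamini-Hochberg over all genes, threshold 0.05, 3 residual degrees of freedom) compared spheres (n = 2) with the 3 ES-type arrays; its spread includes the differences between those cultures. Comparisons with 1 array on a side were counted at 2-fold, in both sphere arrays where spheres were compared. The limma and 2-fold steps were tested on simulated data. Alternatives were another pseudocount, 2 other filters, quantile normalization, no centring, the mean of a gene's probes and leaving out each array.

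The members and lists were chosen with earlier results of these data known. Named genes were the members, the fibroblast defining genes, list genes called by limma, list genes with the largest 2-fold differences of both sphere lines from ES cells without 4OHT or between the lines, and the 3 genes nearest in profile to each member; all other genes, among them Kitl, Il6, Cebpb, Tgfbr1, Tgfbr2, Adipoq, Cdh5 and Nanog, were chosen after their values were seen. Promoters came from RefSeq for 6 of the 10 members; the other 4 were not used here.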

Additional observations from a re-analysis of the deposited data

Results flagged for a closer look

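For 2 genes the sphere lines lay on opposite sides of the mean of the ES arrays without and with 4OHT, and this difference was not tested, since each line had 1 array. S100a4 was 4.21 log2 units above that mean in line 21 spheres and 0.70 below it in line 42 spheres (-0.70), a difference of line 42 from line 21 of -4.91. Line 42 spheres and both ES arrays were dim for S100a4, so the line 42 side of this difference has no reliable direction. Vim was at -0.17 in line 21 spheres and 0.60 in line 42 spheres, a difference of 0.76. The sign of Vim in line 21 against ES cells with 4OHT alone turned with the normalization.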

How the results depend on the processing

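Another pseudocount, 2 other filters on dim probes, quantile normalization, no centring and the mean of a gene's probes left limma with 239 to 275 calls in place of 258. With 1 array left out limma called 0 to 284, the 0 without ES cells without 4OHT. Arrays did not overlap for 4657 to 6884 genes in place of 3975, and for 4 to 7 members in place of 4, the 7 without the reverted cells. With 1 sphere line alone, genes at least 2-fold apart numbered 1890 to 2266 in place of 1082 against ES cells without 4OHT, 2132 to 2702 in place of 1336 with 4OHT, and 1705 to 2284 in place of 1035 against reverted cells. Members at least 2-fold apart numbered 5 to 8 in each of these, in place of 4, 4 and 5. Such rises follow from asking for 1 array in place of 2. Between the ES cultures, 488 genes became 752 with no filter and 313 at the 60th percentile. For spheres against the 3 ES-type arrays, differences of under 2-fold changed sign when an array was left out: S100a4 (0.25) became -2.21 without line 21 spheres, -0.26 without ES cells without 4OHT and -0.75 without ES cells with 4OHT, Bgn (0.71) became -1.14 and Tm4sf1 (0.48) -0.67 without line 21 spheres, and Tm4sf1 -0.25 without ES cells without 4OHT. That of Vim was 0.22 without the reverted cells, and that of Thy1 -3.49 with a pseudocount of 10. A pseudocount of 10 moved 24 of 82 member differences of at least 2-fold by over 1.5 times. It left 3 members against ES cells with 4OHT, 4 against reverted cells and 6 between the sphere lines in place of 4, 5 and 7, and the 60th percentile filter left 3, 5 and 5, and 6 in place of 7 between reverted cells and ES cells without 4OHT (Tm4sf1 lost). Among 120 member differences under other scalings 4 changed sign: Mgp and Bgn between the ES cultures, Bgn in line 42 spheres against ES cells without 4OHT, and Vim in line 21 spheres against ES cells with 4OHT. Comparisons of 1 array with 1 could not leave an array out. No paired analysis was possible because the groups compared share fewer than 2 replicate numbers.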
